A study of Mus musculus with 2 samples.

Results

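Atf3, Btg2, Ier2, Ier3, Dusp1, Zfp36, Socs3 and Nfkbia are immediate-early genes, and most of their products restrain the signals that switch them on. They were chosen by name, and all 8 were found among the 31054 features counted in the normal library and the 32285 features counted in the wounded library. Their levels were described in the 4 clusters that the deposited count table names for the normal anorectum, in the 6 clusters named for the wounded anorectum, and in the cells of each library that passed the quality filters but are in neither table, which makes 12 groups of cells in all.

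Immediate-early genes are transcribed within minutes of a growth factor, cytokine, wound or stress signal, without new protein synthesis, and their mRNAs are short-lived. Some encode transcription factors such as Fos, Jun and Egr1 that carry the response forward. Others close it down: a phosphatase that inactivates MAP kinases, an inhibitor of JAK kinases, an inhibitor that holds NF-kB in the cytoplasm, and proteins that speed the decay of other mRNAs. In epithelia the set is known both from wound edges and from cells separated with enzymes, because enzymatic dissociation itself induces it.

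The study measured single cells of the mouse anorectal transition zone (TZ), the border where the stratified anal epithelium meets the single-layered rectum. Both libraries came from K17CreERT2;R26RGFP mice of C57/BL6J background that had received 2 tamoxifen injections, so that a Krt17-driven inducible Cre had switched on a GFP reporter. The reporter labels Krt17-expressing cells and alters no gene of the set. The normal library is unwounded tissue, and the wounded library was taken 1 week after the epithelium had been removed with hot EDTA and a brush, in mice 2 to 4 months old. By the methods, cells were isolated from mice induced with tamoxifen for 2 days, whereas the wounded mice were wounded after the injections. They also received isoflurane and METACAM for the wound. Time since tamoxifen and these drugs thus differ between the libraries as well. Tissue was dissociated with collagenase, and EpCam-positive cells without CD45, CD11b, CD31 and PDGFRa were sorted and run as 1 10x library per condition from at least 5 pooled mice. Condition and library therefore cannot be told apart, no test between conditions was possible, and every interval given is a 95% interval that covers counting error of these libraries only. The headers of the matrices name Cell Ranger 3.1.0 for the normal and 4.0.0 for the wounded library, and their feature lists differ in length (31054 and 32285), so the references differed. The part of this in any wounded-over-normal ratio was not tested and cannot be told apart from the condition.

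The normal library held 2564 barcodes, of which 1548 had 200 to 5000 genes and under 25% mitochondrial UMIs, and the wounded library held 17216, of which 5225 passed. The deposited tables hold 939 and 4147 cells, of which 1 normal cell did not pass these filters and was kept. The cells that passed but are not in the tables numbered 610 in the normal and 1078 in the wounded library. 1 barcode occurred in both libraries and 0 did among the cells that passed. Median depth was 8437.5 to 12616 UMIs per cell in every group except the wounded Hybrid cluster, which had 2390. Levels are UMIs of a gene over all UMIs of the group of cells, scaled to CPM. Markers of immune cells summed to at most 22 CPM in the groups of passing cells. All 8 genes were among the features on which a rebuilt clustering would separate cells, so a difference between clusters of a library is given as a description and not as a test.

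Sequences of the genes are shown first, because genes of this kind are known for short elements near the start site that CREB/ATF, STAT and NF-kB factors bind, and for AU-rich elements in the 3′ UTR that shorten the life of the mRNA. RefSeq (GRCm38.p6) gave promoter windows for 7 of the 8 genes, each from 250 bases before to 50 after the start, and the table had no window for Ier2. The cAMP response element TGACGTCA, which binds CREB and ATF factors including Atf3 itself, was found in Btg2 and Dusp1 and in 1.79% of 32851 windows. The capitals mark it in both stretches, which run chr1:134079299-134079336 and chr17:26508593-26508630 on the minus strand.
Btg2: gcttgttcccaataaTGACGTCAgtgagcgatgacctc
Dusp1: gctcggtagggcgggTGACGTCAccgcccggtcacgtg
The Atf3 window has a 1-base variant of the element, chosen after the window was seen and found in 0.499% of windows, at chr1:191183334-191183358 on the minus strand.
Atf3: aagctattaatagcaTTACGTCAgc
A STAT element (TTCNNNGAA) was found in Socs3, the feedback inhibitor of STAT3 signalling, and in Zfp36, and in 8.30% of windows. The Socs3 stretch is chr11:117969497-117969535 on the minus strand.
Socs3: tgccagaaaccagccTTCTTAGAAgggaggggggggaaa
An NF-kB site was found in Nfkbia and Ier3, and in 4.51% of windows. The stretches, with the site in capitals, are chr12:55492652-55492691 on the minus strand and chr17:35821606-35821645 on the plus strand.
Nfkbia: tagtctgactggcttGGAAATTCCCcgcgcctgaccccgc
Ier3: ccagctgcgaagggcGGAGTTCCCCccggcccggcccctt
A CArG box, the site of serum response factor, was found in Zfp36 and in 1.63% of windows, and the AP-1 element TGANTCA was found in 0 of the 7 windows and in 7.81% of all. Both strands were searched. A match is a string of letters in a window and not a measured binding site.

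The AU-rich element TATTTAT, in the DNA spelling, is the core that Zfp36 family proteins bind. It was found in the annotated 3′ UTR (GENCODE M21, GRCm38) of every gene of the set except Ier2, which is 87.5% of the 8, against 25.5% of 20647 genes and 27.7% of the 8916 genes whose 3′ UTR was in the same range of lengths, 512 to 2199 bases. Ier3 had 4 copies, Dusp1 and Zfp36 3 each, Nfkbia and Socs3 2 each, and Atf3 and Btg2 1 each. A single site is marked in capitals for each of the genes with the most copies per base. The Ier3 stretch holds a further copy of the element in small letters.
Ier3: tgtctaattaaTATTTATgtatttatgta
Dusp1: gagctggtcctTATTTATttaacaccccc
Nfkbia: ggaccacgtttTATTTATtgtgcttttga
Zfp36: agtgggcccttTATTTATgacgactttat
These sites begin 182, 104, 297 and 575 bases after the stop codon. The Zfp36 mRNA thus carries copies of the element that its own protein binds.

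Summed over the 8 genes, the highest level was in the wounded Regeneration cluster, at 6566 CPM (6522 to 6610, 991 cells). The normal Basal cluster followed with 4226 CPM (4148 to 4304, 257 cells) beside 4224 CPM (4172 to 4276) in the normal cells that are not in the table, and these levels were not distinguished. Wounded Suprabasal had 1639 CPM, wounded Hybrid 1291 CPM, and the left-out wounded cells stood at 1191 CPM. Below 1000 CPM were normal Suprabasal (827), wounded Rectum (818), normal Anal Canal (715), normal Rectum (699), wounded Wound_Stress (432) and wounded Basal (364 CPM, 349 to 380). Neighbours in this order whose intervals overlapped were normal Basal with the normal cells outside the table, normal Suprabasal with wounded Rectum, and normal Anal Canal with normal Rectum. High and low levels occurred in both libraries, and the name Basal marked the highest of the deposited clusters in the normal library and the lowest in the wounded library.

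**Figure D1:**
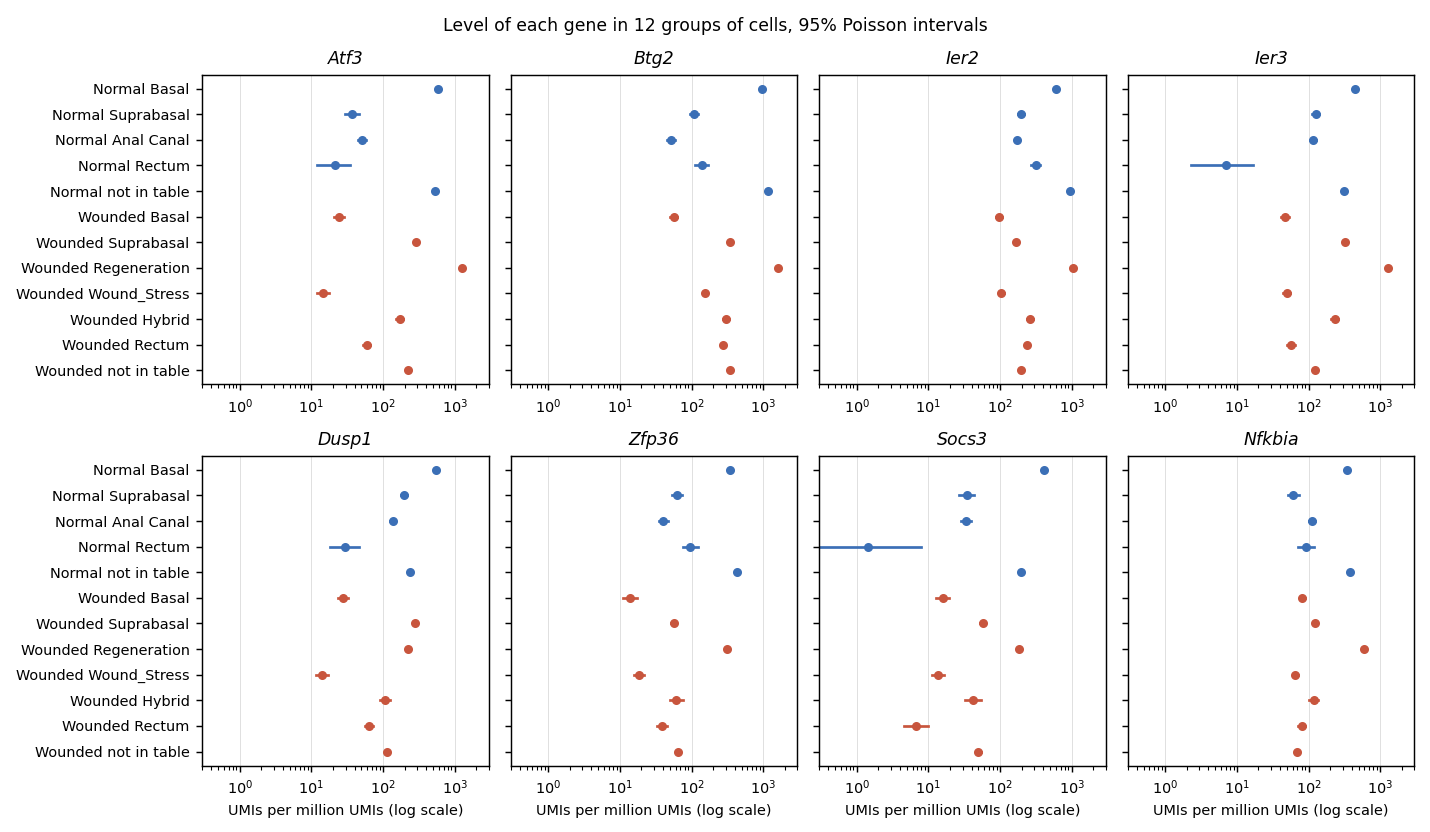
Level of each of the 8 genes (panels) in the 12 groups of cells, in CPM on a log axis, with exact Poisson 95% intervals; normal groups are blue and wounded groups red. Regeneration is the highest group for Atf3 (1269), Btg2 (1635), Ier2 (1050), Ier3 (1303) and Nfkbia (598), and normal Basal or the normal cells outside the table for Dusp1, Zfp36 and Socs3; the lower bar of Socs3 in the normal Rectum runs off the axis.

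Atf3 encodes a stress-induced transcription factor of the ATF/CREB family that mostly represses its targets (ENSMUSG00000026628, chromosome 1, 191170296 to 191218039, minus strand, GRCm38). In the normal library Atf3 stood at 576 CPM in Basal, 37.2 in Suprabasal, 50.9 in Anal Canal, 21.3 in Rectum and 535 in the cells outside the table. In the wounded library it stood at 24.4 CPM in Basal, 286 in Suprabasal, 1269 in Regeneration, 14.5 in Wound_Stress, 170 in Hybrid, 58.9 in Rectum and 227 outside the table. Atf3 spanned the widest range of the set between the clusters of the wounded library, from Wound_Stress to Regeneration.

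Ier2 and Ier3 are named for the immediate early response. Ier2 is a nuclear protein of a small family, and Ier3 is induced through NF-kB and p53 and modulates ERK signalling and cell survival. Ier2 (ENSMUSG00000053560, chromosome 8, 84661331 to 84662852, minus strand) has a single exon. It stood at 601, 198, 174, 312 and 959 CPM in normal Basal, Suprabasal, Anal Canal, Rectum and the cells outside the table. Its wounded levels were 96.9 CPM in Basal, 164 in Suprabasal, 1050 in Regeneration, 104 in Wound_Stress, 261 in Hybrid, 236 in Rectum and 198 outside the table. Ier2 was thus well detected in the rectum of both libraries, where Ier3 was low. Ier3 (ENSMUSG00000003541, chromosome 17, 35821684 to 35822923, plus strand) had 439, 126, 115, 7.10 and 309 CPM in the normal groups in the same order. In the wounded groups Ier3 had 47.2 CPM in Basal, 327 in Suprabasal, 1303 in Regeneration, 49.5 in Wound_Stress, 232 in Hybrid, 57.2 in Rectum and 123 outside the table. The normal Rectum value rests on 5 UMIs.

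Dusp1 encodes a nuclear phosphatase that inactivates the MAP kinases p38, JNK and ERK (ENSMUSG00000024190, chromosome 17, 26505590 to 26562128, minus strand). Dusp1 stood at 543 CPM in normal Basal, 198 in Suprabasal, 137 in Anal Canal, 29.8 in Rectum and 240 outside the table. In the wounded library it was highest in Suprabasal, at 278 CPM (269 to 288), above Regeneration at 220 CPM (212 to 228), and it had 27.4 CPM in Basal, 14.1 in Wound_Stress, 107 in Hybrid, 64.2 in Rectum and 114 outside the table. As the mean over cells of UMIs per 10000, in which each cell weighs the same, the order turned, with 2.85 in Regeneration and 2.17 in wounded Suprabasal. Regeneration over normal Basal, Dusp1 had a log2 ratio of −1.31 (−1.40 to −1.21).

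Btg2 and Zfp36 act on other mRNAs. Btg2 is an anti-proliferative protein that recruits the CCR4-NOT deadenylase, and Zfp36 (tristetraprolin) brings deadenylases to AU-rich mRNAs. Btg2 (ENSMUSG00000020423, chromosome 1, 134075170 to 134079120, minus strand) had 967 CPM in normal Basal, 109 in Suprabasal, 51.8 in Anal Canal, 138 in Rectum and 1168 outside the table. Its wounded levels were 56.4 CPM in Basal, 346 in Suprabasal, 1635 in Regeneration, 152 in Wound_Stress, 300 in Hybrid, 276 in Rectum and 345 outside the table. Unlike Atf3, Btg2 was lower in wounded Basal than in Wound_Stress. Zfp36 (ENSMUSG00000044786, chromosome 7, 28376784 to 28380253, minus strand) had 344, 63.5, 40.4, 96.6 and 432 CPM in the normal groups, again as Basal, Suprabasal, Anal Canal, Rectum and outside the table. It had 309 CPM (299 to 318) in Regeneration, below the 344 (322 to 367) of normal Basal, and 13.8 in wounded Basal, 56.2 in Suprabasal, 18.5 in Wound_Stress, 61.4 in Hybrid, 38.7 in Rectum and 64.8 outside the table. As the mean over cells of UMIs per 10000 the order of Regeneration and normal Basal turned, with 3.37 and 2.95.

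Socs3 and Nfkbia close cytokine pathways: Socs3 binds gp130-type receptors and JAK kinases and limits STAT3, and Nfkbia is IkB-alpha, the NF-kB target that returns NF-kB to the cytoplasm. Socs3 (ENSMUSG00000053113, chromosome 11, 117966079 to 117970047, minus strand) had 412 CPM in normal Basal, 34.2 in Suprabasal, 34.0 in Anal Canal, 1.42 in Rectum, which is 1 UMI, and 198 outside the table. It had 182 CPM in Regeneration, 16.0 in wounded Basal, 56.9 in Suprabasal, 13.8 in Wound_Stress, 41.8 in Hybrid, 6.81 in Rectum and 49.5 outside the table. The rectum had the lowest Socs3 level of either library. Nfkbia (ENSMUSG00000021025, chromosome 12, 55489410 to 55492647, minus strand) had 342, 61.3, 111, 92.3 and 384 CPM in the normal groups in the order used above. It had 598 CPM in Regeneration, 82.1 in wounded Basal, 124 in Suprabasal, 65.4 in Wound_Stress, 117 in Hybrid, 80.3 in Rectum and 69.7 outside the table. Nfkbia and Ier2 had the narrowest ranges of the set over the 12 groups.

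Within the normal library, all 8 genes were at least 2-fold higher in Basal than in the other deposited cells together, a size reached by 6.04% of the 9544 genes with at least 50 UMIs. The median log2 ratio was 2.36, and the largest were Socs3 with 3.74 (3.53 to 3.95), Atf3 with 3.72 (3.54 to 3.89) and Btg2 with 3.64 (3.50 to 3.77). Suprabasal was at least 2-fold lower for 5 of the 8 (19.1% of all genes), Anal Canal for 7 (9.65%) and Rectum for 5 (17.9%). Those comparisons hold the Basal cells on their other side, and with Basal left out of it, a comparison chosen after the data were seen, 0, 1 and 4 genes were at least 2-fold lower. The share of all genes at that size was not counted with Basal left out.

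In the wounded library, 7 of the 8 genes were at least 2-fold higher in Regeneration than in the other deposited cells, against 3.95% of 12654 genes. The median log2 ratio was 2.81, from Atf3 with 3.25 and Zfp36 with 3.07 (2.97 to 3.16) to Dusp1 with 0.77 (0.70 to 0.84), which missed the 2-fold mark. Basal was at least 2-fold lower for 8 of the 8 (14.4% of all genes), Wound_Stress for 8 (16.8%), Rectum for 7 (16.2%) and Hybrid for 4 (8.29%). Suprabasal was lower for 4 (14.8%) and higher for 1 (5.60%), which was Dusp1 with a log2 ratio of 1.32 (1.25 to 1.39). With Regeneration left out of the other side, Suprabasal became at least 2-fold higher for 6 genes and lower for 0, and Wound_Stress was lower for 5, Rectum for 4 and Hybrid for 0. The share of all genes at that size was not counted with Regeneration left out. As the mean over cells, Suprabasal was higher for 0 genes. The Hybrid count ranged from 1 to 7 under the other alternatives. For the mean over cells and for those alternatives the share of all genes was not counted either.

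The study named 2 of the wounded clusters after the injury, and the 8 genes were far apart in them. Regeneration was at least 2-fold higher than Wound_Stress for 8 of 8 genes, against 5.33% of 10601 genes, in a comparison chosen after the data were seen. Atf3 had a log2 ratio of 6.45 (6.18 to 6.74), Ier3 of 4.72 (4.57 to 4.87) and Zfp36 of 4.06 (3.82 to 4.32), and the smallest was Nfkbia with 3.19 (3.06 to 3.33). The clusters also differed in median mitochondrial share, 5.91% in Regeneration and 10.95% in Wound_Stress, and in median depth, 12616 and 8532 UMIs. The part of these differences in the ratios was not tested.

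Single cells showed how the levels were made up. Each cell was thinned to 2000 UMIs, so that shares of cells are compared at 1 depth. This left out 5 Regeneration, 2 normal Basal and 132 Hybrid cells, and 3 to 49 cells of each other group. In Regeneration, 87.5% of thinned cells had a Btg2 UMI (98.8% unthinned), 74.1% an Ier3 UMI (91.9%), 71.2% an Atf3 UMI (89.9%) and 70.6% an Ier2 UMI (95.3%). The shares were 51.7% for Nfkbia (81.9%), 43.9% for Zfp36 (86.0%), 27.8% for Socs3 (60.2%) and 26.9% for Dusp1 (55.0%). In normal Basal they were 45.9% for Btg2 (66.5% unthinned), 36.1% for Dusp1 (54.1%), 34.1% for Socs3 (56.4%) and 28.2% for Atf3 (38.9%). Normal Basal thus had a higher share of Dusp1 and Socs3 cells, and Regeneration of the others named. No cell type of these tissues is known to lack the genes, so no share could be set as background from free RNA.

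Only 1.9% of thinned Regeneration cells had none of the 8 genes, against 23.5% in normal Basal, 60.5% in wounded Basal and 56.7% in Wound_Stress. Of Regeneration cells 73.1% had at least 4 and 31.7% at least 6 of the genes, and of normal Basal cells 32.5% and 19.2%. The median thinned Regeneration cell held 13 UMIs of the set (quartiles 7 and 20), and the median normal Basal cell 3 (1 and 12). Without thinning, the tenth of normal Basal cells with the most UMIs of the set held 49.0% of them, and in Regeneration 24.2%. Differences in depth between cells enter these unthinned values. The level of normal Basal thus came from a part of its cells, and that of Regeneration from nearly all.

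**Figure D2:**
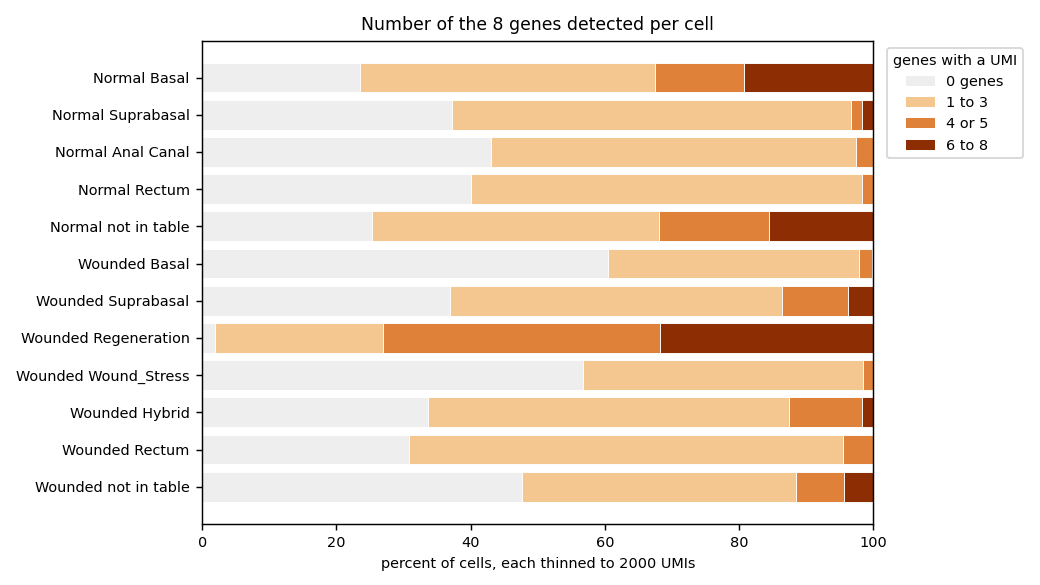
Share of cells in each group (bars, percent of cells thinned to 2000 UMIs) with UMIs of 0, 1 to 3, 4 or 5, or 6 to 8 of the genes. Regeneration has 1.9% of cells with 0 genes and 31.7% with 6 or more; normal Basal has 23.5% and 19.2%.

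The median of the 28 pairwise Pearson correlations, over thinned cells on the log2(UMIs + 1) scale, was 0.47 in normal Basal, where Atf3 and Btg2 reached 0.70, and 0.42 and 0.39 in the normal and wounded cells outside the tables. It was 0.30 in normal Suprabasal, 0.25 in wounded Suprabasal and 0.23 in Regeneration, and 0.10 or less in wounded Basal, wounded Rectum, Wound_Stress and Anal Canal. The median thinned cell held 0 UMIs of the set in wounded Basal and Wound_Stress. It held 1 in wounded Rectum and Anal Canal, as in normal and wounded Suprabasal. The part of such low counts in the correlations was not tested. In Regeneration the highest pair was Btg2 with Ier2 (0.39) and the lowest Dusp1 with Nfkbia (−0.01). Cells of a cluster share 1 library, and these values are descriptions. In normal Basal the summed level of the set ran with that of the AP-1 genes (Spearman rho 0.81) and against the mitochondrial share (−0.31), and in Regeneration the AP-1 value was 0.72.

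Across the 12 groups, which come from only 2 libraries, the 28 pairs had a Pearson r of 0.57 to 0.96 on the log2 level, with a median of 0.80. The genes outside the set with the profile most like its mean were Junb (0.96), Klf6 (0.96), Fos (0.95), Dnajb1 (0.94) and Egr1 (0.93), all of them immediate-early or stress-induced genes, followed by Tcim (0.91), Ifrd1 (0.90), Dusp6 (0.90) and Jun (0.89). Single genes had partners of their own. Jun was nearest to Btg2 (0.98), Klf6 to Atf3, Csrp1 to Socs3, and Tpm4, Cdkn1a and Actg1 to Dusp1.

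Before the libraries were compared, the deposited names were checked against each other, because a name should mark like cells in both. For 2265 genes, with the 8 genes and the related lists left out, the profile of wounded Basal was most like normal Anal Canal (Pearson r 0.87) and had an r of −0.28 with normal Basal. Krt13, a keratin of non-cornified stratified epithelium, had 1443 CPM in wounded Basal, 812 in normal Anal Canal and 2.96 in normal Basal. Psca had 1315, 680 and 1.48 CPM, and Krt10, a keratin of suprabasal layers, 1987, 2228 and 48.4 CPM. Sostdc1, one of the genes that mark normal Basal at 224 CPM, had 36.8 CPM in wounded Basal. Basal-layer markers did not separate the groups in this way. Krt5, Krt14, Krt15, Col17a1, Itgb4 and Trp63 summed to 13016 CPM in wounded Basal, 18781 in normal Anal Canal and 10865 in normal Basal. Of the wounded clusters, wounded Basal had the highest sum of these markers, ahead of Suprabasal with 7947 CPM. Suprabasal markers (Krt10, Krt1, Lor, Ivl, Sbsn and Krtdap) summed to 7831, 8493 and 388 CPM in the former groups. By whole profile, the name Basal thus did not mark like cells in both libraries.

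Wounded Suprabasal matched normal Suprabasal (0.89) but held 2 kinds of cells in a clustering rebuilt without the set. Of its 1032 cells, 498 fell in a cluster with Sostdc1 among its leading genes, most like normal Basal (0.71), and 514 in a cluster with Klk7, a peptidase of cornifying cells, among them, most like normal Suprabasal (0.87). Sostdc1 had 199 CPM in the former, and both are called by these genes here. Regeneration was most like 237 normal cells that passed the filters but are not in the table and form a cluster led by Saa3 and Il33 (0.83), ahead of normal Basal (0.70), and Wound_Stress was also most like them (0.84). Rectum matched Rectum (0.85), and Hybrid matched no normal group above 0.09. Il33, an alarmin of epithelial cells, had 186 CPM in those 237 normal cells, 134 in Regeneration, 154 in Wound_Stress and 15.5 in normal Basal. These pairings and the comparisons built on them were chosen after the data were seen. Only the set and the related lists were left out, and other genes that run with the set could remain. Egr4 was among the leading genes of the Saa3- and Il33-led normal cluster. It was also among those of a rebuilt wounded cluster of 599 cells, 596 of them named Regeneration. The part of such genes in the clusters, the pairings and the levels of the paired cells was not tested.

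**Figure D3:**
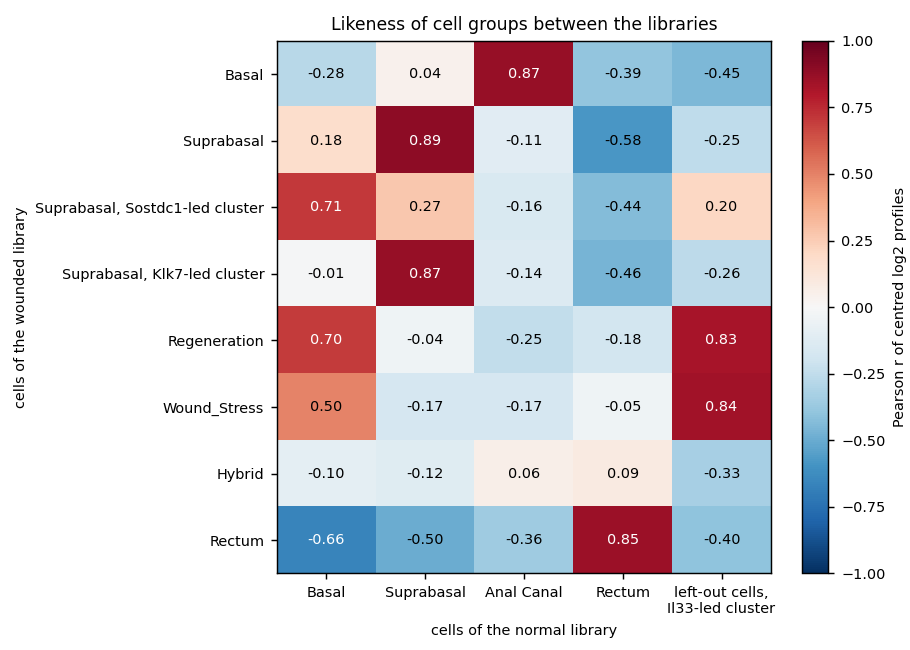
Pearson r of the log2 profiles, each centred within its library, between cells of the wounded library (rows) and of the normal library (columns), over 2265 genes without the 8 genes. The Basal row has −0.28 under normal Basal and 0.87 under Anal Canal; Rectum matches Rectum (0.85).

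By deposited name, all 8 genes were at least 2-fold lower in wounded than in normal Basal, against 12.1% of 9119 genes, with a median log2 ratio of −4.21. The log2 ratios ran from −4.68 (−5.01 to −4.38) for Socs3, −4.64 for Zfp36 and −4.56 for Atf3 to −2.63 for Ier2 and −2.06 (−2.22 to −1.90) for Nfkbia. This comparison sets unlike cells side by side. Against normal Anal Canal, wounded Basal was at least 2-fold lower for 5 genes, against 6.29% of 9394 genes, with a median log2 ratio of −1.07. The lowest ratio was that of Dusp1 with −2.33 (−2.59 to −2.07), while Btg2 had 0.12 (−0.13 to 0.37) and Nfkbia −0.44 (−0.63 to −0.26). The count was 3 with a mitochondrial share under 10% and 2 with the authors' whole numbers, settings in which the share of all genes was not counted. Against normal Anal Canal the difference was smaller than against normal Basal, and for Btg2 its interval held 0. Summed levels were 4226 CPM in normal Basal and 715, 827 and 699 CPM in normal Anal Canal, Suprabasal and Rectum. The summed difference would be smaller against any of the latter clusters, so its size does not show whether the cells are alike.

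Likeness to normal Basal was nearly the same for the Sostdc1-led cells (r 0.71) and for Regeneration (0.70). Their summed levels lay on opposite sides of that of normal Basal. The median log2 ratio of Regeneration over normal Basal was 0.78 for the 8 genes and −0.13 for all genes. In CPM, Dusp1, Socs3 and Zfp36 were lower in Regeneration and the others higher. As the mean over cells of UMIs per 10000, Zfp36 was higher in Regeneration, at 3.37 against 2.95. In the Sostdc1-led cells 8 of 8 genes were at least 2-fold lower than in normal Basal, against 6.53% of 8470 genes, with a median log2 ratio of −2.61. Zfp36 had −3.92 (−4.25 to −3.61), Socs3 −3.06, Nfkbia −2.90, Atf3 −2.89 and Ier3 −1.27 (−1.41 to −1.14). Their summed level was 811 CPM against the 4226 of normal Basal and the 6566 of Regeneration. Median mitochondrial shares were 10.7% and 4.77%, and their part in the result was not tested. The rebuilt cluster held 859 cells in all, and only the 498 named Suprabasal were compared. Its 27 left-out cells had a summed level of 3676 CPM, and its cells with other deposited names were not compared as a set. Because the deposited names may depend on the 8 genes, the counts describe the chosen cells and not the whole cluster.

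Suprabasal cells went the other way for part of the set. Wounded Suprabasal was at least 2-fold higher than normal Suprabasal for 4 genes, against 14.3% of 9771 genes, and the median log2 ratio was 0.87. Restricted to the Klk7-led cells it was again 4 genes, against 7.54% of 8436 genes: Atf3 with 3.42 (3.11 to 3.75), Btg2 with 1.98 (1.79 to 2.17), Ier3 with 1.70 (1.52 to 1.88) and Nfkbia with 1.43 (1.18 to 1.70). Dusp1 had 0.89 (0.75 to 1.04), Socs3 0.86, Zfp36 0.22 (−0.04 to 0.50) and Ier2 −0.07 (−0.22 to 0.09). Ier2 and Zfp36 were thus not separated between the libraries, while Atf3 stood at 399 against 37.2 CPM.

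In the Rectum clusters, 4 of the 7 genes with enough UMIs were at least 2-fold higher in the wounded library, against 9.97% of 7820 genes, and 1 was lower, against 5.01%. Ier3 had a log2 ratio of 3.01 (1.77 to 4.65), Atf3 of 1.47 (0.72 to 2.33), Dusp1 of 1.11 (0.46 to 1.82) and Btg2 of 1.00 (0.70 to 1.32), and Zfp36 was lower with −1.32 (−1.74 to −0.89). Ier2 had −0.41 (−0.62 to −0.19), and Socs3 had too few UMIs for a ratio. The normal Rectum holds 63 cells, and its Ier3, Atf3 and Dusp1 values rest on 5, 15 and 21 UMIs. The minimum of UMIs for a ratio was set on both Rectum clusters together. Ier3, Atf3 and Dusp1 reached it through their 235, 242 and 264 UMIs in the wounded Rectum. The same minimum was used for all genes, and its part in the counts was not tested. The count of higher genes was 2, Ier3 and Atf3, without the 5% of cells with the most UMIs and also with the authors' whole numbers. Shares of all genes were not counted for these recounts.

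Regeneration has no namesake in the normal library. Against normal Basal it was at least 2-fold higher for 2 genes (10.6% of 10005 genes), Ier3 with 1.57 (1.49 to 1.66) and Atf3 with 1.14 (1.06 to 1.21), and lower for 2 (11.5%), Dusp1 with −1.31 and Socs3 with −1.18 (−1.29 to −1.08). As the mean over cells it was higher for 5 and lower for 0, with Dusp1 at 2.85 against 4.94 and Socs3 at 2.22 against 3.81 UMIs per 10000. Without the 5% of cells highest in the set it was higher for 4 and lower for 1, and with the authors' whole numbers lower for 0. In these settings the share of all genes past 2-fold was not counted. Against the 237 normal cells most like it, 2 genes were at least 2-fold higher, against 11.4% of 9888 genes: Ier3 with 1.40 (1.32 to 1.48) and Dusp1 with 1.03 (0.86 to 1.21). Atf3 had 0.94, Socs3 0.46 (0.31 to 0.63), Btg2 −0.01 (−0.06 to 0.03), Nfkbia −0.08, Ier2 −0.42 and Zfp36 −0.71 (−0.80 to −0.63). Summed levels were 6566 CPM in Regeneration and 5591 CPM in those normal cells, both above the 4226 CPM of normal Basal. Wound_Stress was as like those normal cells (r 0.84) as Regeneration (0.83), but its summed level was 432 CPM. Every gene of the set was lower in Wound_Stress than in them, with Atf3 at 14.5 against 662 CPM and Nfkbia at 65.4 against 633. Log2 ratios were not computed for that pairing.

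**Figure D4:**
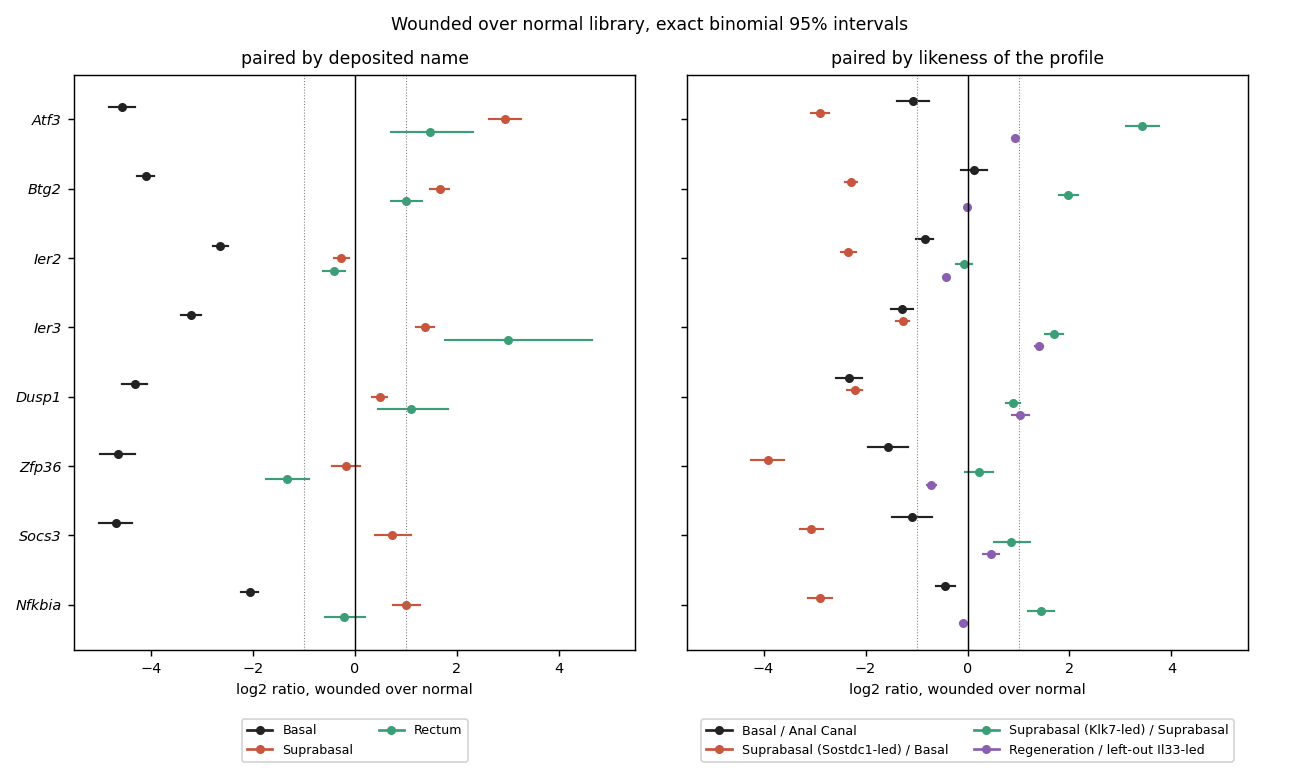
Log2 ratio of the wounded over the normal library for each gene, with exact binomial 95% intervals, for cells paired by deposited name (left) and by likeness of profile (right); dotted lines mark 2-fold. On the left, all 8 Basal points lie below −2, from −4.68 to −2.06. On the right, where wounded Basal is paired with normal Anal Canal, they lie between −2.33 and 0.12. Socs3 in Rectum had too few UMIs to plot. Wound_Stress is not plotted, although its profile was also most like the normal cells paired with Regeneration.

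Over all deposited cells, the log2 ratio of wounded over normal was 1.36 for Ier3, 1.34 for Atf3 and 1.04 for Btg2, while Socs3 had −0.81 and Dusp1 −0.70. The median was 0.54. This ratio depends on how many cells of each cluster were deposited, and Regeneration is 991 of the 4147 wounded cells.

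The 610 normal cells outside the table held 25292 UMIs of the set, more than the 16941 of the 939 deposited cells. Against the deposited normal cells they were at least 2-fold higher for 5 genes (10.8% of 10918 genes), led by Btg2 at 1.88 on the log2 scale (1.82 to 1.94). In the wounded library such cells were at least 2-fold lower than the deposited ones for 4 genes (9.93% of 13515 genes). Wounded over normal, cells outside the tables were lower for 8 of 8 genes, against 7.50% of 11361 genes, with a median log2 ratio of −1.88, and for 5 as the mean over cells. The wounded count of 4 was 2 as the mean over cells and 7 without the 5% of cells highest in the set. No share of all genes was counted for the recounts as the mean over cells or without those cells. According to the methods, clusters of hair follicle, fibroblast and anal gland cells were removed, and the makeup of the cells outside the tables differed between the libraries. For the normal sample the methods describe a further filter on Lgr5, Lhx2 and Tbx1, which took hair follicle cells out of its basal cluster. The part of this filter in the level of normal Basal was not tested.

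In a clustering rebuilt at the resolution the methods state, 0.2, the normal cells outside the table fell mainly into anal gland-like (329 cells, 4443 CPM summed over the 8 genes), hair follicle-like (185 cells, 4175 CPM) and fibroblast-like cells (65 cells, 2834 CPM). In the wounded library the anal gland-like cells had 390 CPM (414 cells), the fibroblast-like cells 754 CPM (186 cells), the endothelial-like cells 2667 CPM (33 cells) and the stratified basal-like cells 3676 CPM (27 cells). A further 187 left-out wounded cells, with 3587 CPM, belonged to a cluster that stayed unnamed and whose leading genes came from other cells of the cluster. Names come from marker lists, and clusters without a marker among their leading genes stayed unnamed.

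At a resolution of 0.4 the normal anal gland-like cells came apart. The 237 cells led by Saa3 and Il33 had 5591 CPM, with 1648 CPM of Btg2, 1408 of Ier2, 662 of Atf3, 633 of Nfkbia and 107 of Dusp1, and the 92 cells that kept the anal gland name had 1457 CPM. The normal fibroblast-like cells were then 36, with 1192 CPM, and 229 in the wounded library, with 895 CPM. Hair follicle-like cells had 4175 CPM in the normal and 4158 CPM in the wounded library (144 cells). Another 102 left-out wounded cells, led by Rnase12 and Krt16 and with the hair follicle markers Krt75 and Lhx2 among their leading genes, had 1796 CPM and stayed unnamed. Among left-out normal cells, the 8 genes were high in the Saa3- and Il33-led cells, the hair follicle-like cells and 45 unnamed cells (4051 CPM). Leading genes of those 45 cells were haemoglobin genes beside Actg2, Des, Cnn1, Rgs5, Myh11, Ccl21a and Fabp4. Of the marker lists, the endothelial list scored highest in them.

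**Figure D5:**
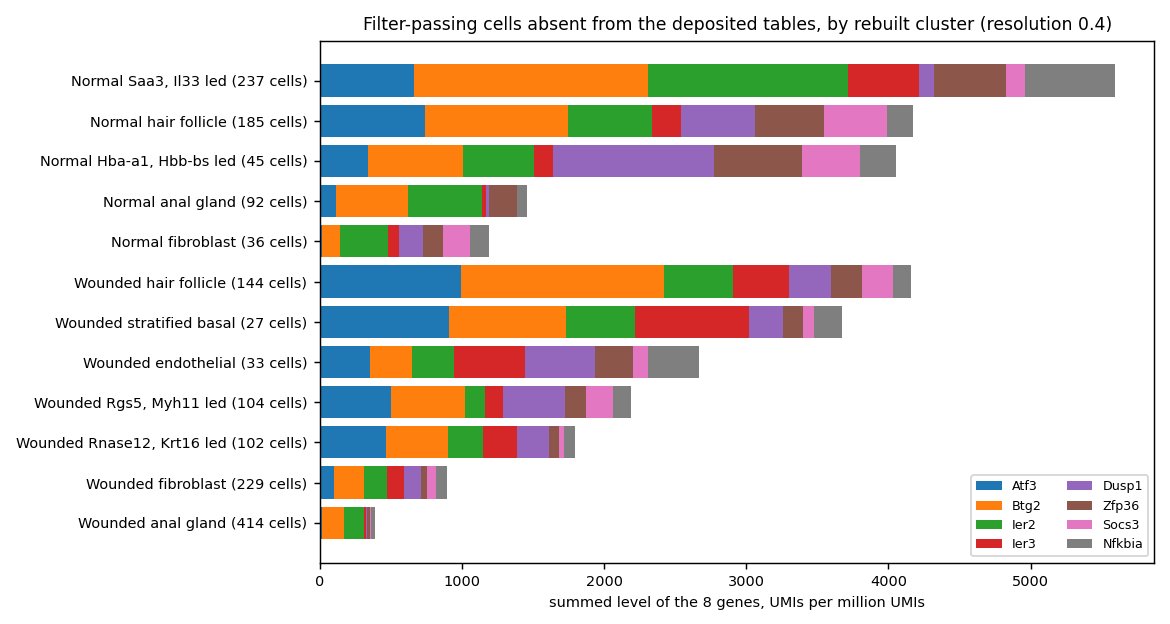
Summed level of the 8 genes (stacked bars, CPM) in rebuilt clusters (resolution 0.4) of cells that passed the filters but are not in the deposited tables. The Saa3- and Il33-led normal cells reach 5591 and the wounded anal gland-like cells 390; hair follicle-like cells stand at 4175 and 4158.

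Other genes of the same pathways were counted from lists that exclude the 8 genes. In Regeneration against the other wounded cells, all 7 AP-1 genes were at least 2-fold higher, with Fosl1 at a log2 ratio of 5.48, and so were 5 of 6 EGR and NR4A factors (Nr4a3, 5.27) and 16 of 21 other immediate-early genes (Klf2, 3.42). Of MAP kinase feedback genes 8 of 12 were higher (Dusp5, an ERK phosphatase, 3.16). For lists nearer to single genes of the set the counts were 3 of 8 NF-kB feedback genes (Tnfaip3, 2.85), 1 of 5 NF-kB subunits (Rel, 1.78), 1 of 7 mRNA decay and anti-proliferative genes (Zfp36l1, 2.01), and 4 of 12 JAK-STAT genes with 1 lower (Socs1, 2.17). The share of all genes at least 2-fold higher was the 3.95% given above. Of genes with at least 200 UMIs, 10.5% were at least 2-fold lower.

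In normal Basal against the other normal cells, 7 of 7 AP-1 genes, 4 of 4 measured EGR and NR4A factors and 14 of 21 other immediate-early genes were at least 2-fold higher, beside 6.04% of all genes. Of the feedback lists it was 3 of 7 for MAP kinases, 2 of 6 for NF-kB, 5 of 11 for JAK-STAT with 1 lower, and 1 of 7 for mRNA decay. Of genes with at least 200 UMIs, 6.29% were at least 2-fold lower. In the Sostdc1-led wounded cells against normal Basal, 5 of 6 AP-1 genes and 15 of 21 other immediate-early genes were at least 2-fold lower, beside 6.53% of all genes. Only cells of that rebuilt cluster named Suprabasal were compared, and the deposited names may depend on these genes. The counts therefore describe the chosen cells and not the whole rebuilt cluster. In the Klk7-led wounded cells against normal Suprabasal, 3 of 6 AP-1 genes and 8 of 21 other immediate-early genes were higher, beside 7.54% of all genes. Of those 21 genes 1 was lower, beside 4.45% of genes with at least 200 UMIs. Here too only cells named Suprabasal were compared, and the counts describe the chosen cells.

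Markers of other cells moved with the set in some groups. The summed level of 10 anal gland markers was 2929 CPM in Regeneration, 1800 CPM in Wound_Stress, 688 CPM in normal Basal and 253 CPM in wounded Basal, and 3247 and 4904 CPM in the normal and wounded cells outside the tables. Wound_Stress and the wounded cells outside the table had high marker levels beside low levels of the 8 genes. Fibroblast markers summed to 1084 and 3776 CPM in the normal and wounded cells outside the tables, although the gate excluded PDGFRa-positive cells. In Hybrid, hair follicle markers summed to 1495 CPM and endothelial markers to 193 CPM. The part of these cells in the levels of the 8 genes was not tested.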

How the data were processed

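The authors aligned 10x reads to mm10 and deposited, for each of 2 libraries, a matrix of UMI counts and a table of natural log normalized values with a cluster name per cell. Per the submitters' processing notes, Cell Ranger 3.1.0 and Seurat 3.2.2 were used. The deposited tables were read for cell names and clusters, and their values, turned back to whole numbers, served as an alternative. Per the labels the groups are normal and wounded.

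The stated filters were applied (200 to 5000 genes, under 25% mitochondrial UMIs). UMIs were summed per group and divided by the group's total (CPM), with exact Poisson intervals. Ratios carry exact binomial intervals, and genes with at least 50 UMIs in both groups together were counted when they differed at least 2-fold. Cells were thinned to 2000 UMIs for shares. Doublets were not called. Clustering was rebuilt in Seurat 5.3.0 (R 4.3.3) with the 8 genes and the lists left out of the variable features. Other steps used Python 3.11.15, numpy 2.4.6, scipy 1.17.1 and pandas 2.3.3. Ratios and their intervals were tested on simulated Poisson counts. Those counts hold no spread between cells or mice, so the intervals were not tested for it. All 8 genes were named throughout. The genes and lists were chosen with earlier results of these data known, and the rule for naming rebuilt clusters and the pairing by likeness were chosen after the data were seen. Alternatives were thinning depth, filters, mean over cells, leaving out cells with the most UMIs and the authors' own values.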

Additional observations from a re-analysis of the deposited data

Results flagged for a closer look

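Paired by deposited name, several genes moved in opposite directions between clusters, and the difference between clusters was not tested, since each cluster has 1 library per condition. The log2 ratio of wounded over normal in Suprabasal minus that in Basal was 7.50 for Atf3, 5.76 for Btg2, 4.60 for Ier3 and 3.07 for Nfkbia. The log2 ratio in Rectum minus that in Basal was 6.03 for Atf3, 5.10 for Btg2, 6.23 for Ier3 and 5.42 for Dusp1. The name Basal marked unlike cells in the libraries, and every one of these differences rests on it.

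Barcodes that failed the filters also held UMIs of the genes. Their summed level was 876 CPM over 1015 normal barcodes and 615 CPM over 11991 wounded barcodes, above the limits of 1.93 and 0.0909 CPM that a count of 0 allows. Their median mitochondrial shares were 75.3% and 60.0%.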

How the results depend on the processing

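No paired analysis was possible because each condition has 1 library. Of 424 planned recounts of genes past 2-fold, 408 stayed within 1.5 times the reported count. These include the recounts with a minimum of 200 UMIs and of 1 UMI, where 54 of 54 stayed in each. All 1252 planned values of ratios of at least 2-fold kept their sign. Sizes were less stable than signs. Of 1687 planned values of ratios, 465 were classed as moved and 0 as reversed. Of 224 recounted shares of cells, 187 were classed as moved. The cause of the changes was not tested. For the recounts listed below, the share of all genes past 2-fold was not counted. As the mean over cells, the genes lower in the wounded cells outside the tables than in the normal ones were 5, those higher in wounded Suprabasal 0, those lower in Hybrid 1, and those lower in the wounded cells outside the table than in deposited cells 2. With the authors' whole numbers, 2 genes were higher in wounded Rectum than in normal Rectum and 2 lower in Hybrid. Without the 5% of cells with the most UMIs, 2 were higher in wounded Rectum, and with mitochondrial share under 10%, 7 were lower in Hybrid. Without the 5% of cells highest in the set, 7 were lower in the wounded cells outside the table. With the Basal or Regeneration cells left out of the other side (chosen after the data were seen), genes lower numbered 0 in normal Suprabasal, 1 in Anal Canal, 5 in Wound_Stress, 0 in Hybrid, 4 in wounded Rectum and 0 in wounded Suprabasal, where 6 were higher. Shares of all genes were not counted in that setting. In that setting log2 ratios turned positive: in normal Suprabasal for Btg2 (0.78), Zfp36 (0.40) and Socs3 (0.21), in Anal Canal for Atf3 (0.60), Ier3 (0.23) and Socs3 (0.36), in normal Rectum for Btg2 (0.95), in wounded Suprabasal for Btg2 (1.10), Ier2 (0.20), Zfp36 (1.18) and Nfkbia (0.67), in Hybrid for Atf3 (0.37), Btg2 (0.39), Ier3 (0.52) and Nfkbia (0.32), and in wounded Rectum for Btg2 (0.29) and Zfp36 (0.083). Regeneration against normal Basal gave 5 higher and 0 lower as the mean over cells, and wounded Basal against normal Anal Canal 2 lower with the authors' whole numbers. Normal Rectum (63 cells) limits every ratio it enters.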

Other observations

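Lists of stress genes that are induced by other routes were also counted. Of 7 measured genes of the ATF4 stress response 4 were at least 2-fold higher in Regeneration than in the other wounded cells. Ppp1r15a, a phosphatase subunit that ends the eIF2-alpha response, had a log2 ratio of 2.17. Of 10 heat shock genes 4 were higher and 1 lower, with Dnajb1 at 2.56 and Hspb1, a small heat shock protein of differentiating keratinocytes, at −1.41, beside 3.95% of all genes that were higher. Of genes with at least 200 UMIs, 10.5% were at least 2-fold lower. In normal Basal 3 of 5 and 2 of 10 were higher, beside 6.04% of all genes.

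Of the 257 normal Basal cells, 26 fell in the rebuilt cluster led by Saa3 and Il33, and their summed level of the 8 genes was 3951 CPM, against 4276 CPM in the other 231. Dusp1 had 92.9 CPM in the 26 cells and 626 CPM in the others, and Socs3 112 and 467 CPM, while Ier2 had 957 and 536 CPM.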
